A study of Homo sapiens with 6 samples.

Results

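The 34 genes described here are the 13 mRNAs encoded by the mitochondrial genome and 21 nuclear genes whose products transcribe, process, stabilise or replicate that genome's output. They were chosen by symbol from a deposited table of 27328 loci, all 34 symbols were found, and all 34 passed the filter on low values that left 12064 loci to test. The table holds gene expression in 6 RNA-seq libraries of SACC-83, an established human cell line labelled as salivary adenoid cystic carcinoma cells. In 3 of the libraries the cells carried an empty vector, with the genotype label WT, and in the other 3 they overexpressed a circular RNA, circMYBL1 in the study's design text. The genotype labels of the overexpression libraries read circMYBL1, circMYBL2 and circMYBL3 as the replicate number runs on, so whether the 3 carry the same construct is uncertain from the labels. The sources do not say whether the libraries of a group are separate cultures, and p-values therefore reflect the spread of these 6 libraries alone, part of which may be technical. The sequencing was meant to find targets of the circular RNA.

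The human mitochondrial genome is a small circle that is transcribed on both strands into long precursors, and the mRNAs are cut out of them largely at the tRNAs that lie between the genes. Its mRNAs encode subunits of respiratory complexes I, III and IV and of the ATP synthase, while every protein that makes and handles these RNAs is encoded in the nucleus and imported. POLRMT is the mitochondrial RNA polymerase, TFAM packages the DNA and starts transcription with TFB2M, the LRPPRC-SLIRP complex stabilises the mRNAs, and a complex of PNPT1 and SUPV3L1 degrades them.

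In 2 places the mitochondrial genes share more than 1 base, so that reads there cannot be told apart by gene. MT-ATP6 and MT-CO3 share 1 base besides. The sequences of the 2 places are shown because ratios within those gene pairs are given below. MT-ATP8 and MT-ATP6 lie on a common mRNA and overlap by 46 bases (GRCh38, mitochondrial chromosome, 8527 to 8572, plus strand), and MT-ND4L and MT-ND4 lie on another and overlap by 7 bases (10760 to 10766, plus strand). In the sequences, taken from the GENCODE release 29 transcripts, the shared bases are in capitals.
MT-ATP8 and MT-ATP6: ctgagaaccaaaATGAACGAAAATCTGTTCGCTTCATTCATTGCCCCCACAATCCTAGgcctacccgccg
MT-ND4L and MT-ND4: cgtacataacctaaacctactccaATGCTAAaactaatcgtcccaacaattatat

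Values are FPKM as deposited, fragment counts divided by gene length and by the mapped total of the library, and differences are of log2(FPKM + 1), a scale on which low genes appear to change less. Where values of 3 libraries are listed, they are those of replicates 1, 2 and 3 in this order. The libraries summed to 371776 to 408826 FPKM, and read depth is unknown from these values, so no counting error can be given. MYBL1, from which the circle derives, read 9.04, 7.15 and 10.3 FPKM with vector and 359, 44.0 and 2025 FPKM with overexpression. Gene-level reads of MYBL1 do not separate the circle from linear RNA, and the overexpression libraries differ among themselves in this measure. The epithelial markers summed to 1694 to 1818 FPKM in the vector and 1726 to 1988 FPKM in the overexpression libraries, with KRT19 at 1.10 FPKM or less. KRT5, a keratin of basal cells, read 412 and 347 FPKM in vector and overexpression replicate 2 and 94.9 to 142 FPKM in the other 4 libraries. All 6 leukocyte markers, 5 of 6 fibroblast markers and 4 of 5 endothelial markers stayed under 1 FPKM in all 6 libraries. The summed fibroblast markers ran from 3.07 to 4.71 FPKM in libraries numbered 1 and 3 and read 11.3 and 8.90 FPKM in vector and overexpression replicate 2. COL1A1 made up most of that sum and COL1A2 was listed at 0. The endothelial markers summed to 1.71 and 1.39 FPKM in number 2 and 0.101 to 0.327 FPKM in the others, mostly PECAM1, with KDR listed at 0. The part of these differences in the results by replicate number was not tested.

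Together the mitochondrially encoded mRNAs held 7.15%, 10.2% and 8.76% of the summed FPKM with vector. In overexpression replicates 1, 2 and 3 they held 5.64%, 8.43% and 8.52%. The lowest share was thus in overexpression replicate 1 and the highest in vector replicate 2, and the groups overlapped. Within same-numbered pairs the share was lower with overexpression in 3 of 3, with differences of -1.52, -1.75 and -0.247 percentage points. The group means were 8.70% ± 1.52 and 7.53% ± 1.64 (SD, n = 3 each), a difference of -1.17 percentage points that is smaller than either SD. It was -0.23 points without overexpression replicate 1, -0.43 without vector replicate 2 and -1.95 without vector replicate 1, and from -1.67 to -1.14 with one of the other libraries left out. FPKM is relative to the library, and fewer mitochondrial transcripts per cell cannot be told apart from more of other RNA, nor fewer cells of a kind from less RNA per cell.

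Levels per length differed by about an order of magnitude between the 13 mRNAs. MT-CO1, the catalytic subunit of cytochrome c oxidase (complex IV), had the highest vector mean (5911 ± 1730 FPKM, SD, n = 3), followed by its partner subunit MT-CO2 (4839 ± 1677 FPKM). MT-ATP8 (3917 ± 434 FPKM) and MT-ND4L (3890 ± 522 FPKM) came next, and among these 4 genes each gap between neighbours in this order is smaller than the larger SD of the pair. MT-ATP6, MT-ND4 and MT-CO3 had vector means between 2937 and 3364 FPKM. MT-ND2 (1192 to 1724 FPKM with vector) and MT-CYB, the one complex III subunit of this genome (1294 ± 167 FPKM), lay below. MT-ND5, MT-ND1, MT-ND3 and MT-ND6, all of complex I, were lowest at 546 to 747 FPKM.

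**Figure D1:**
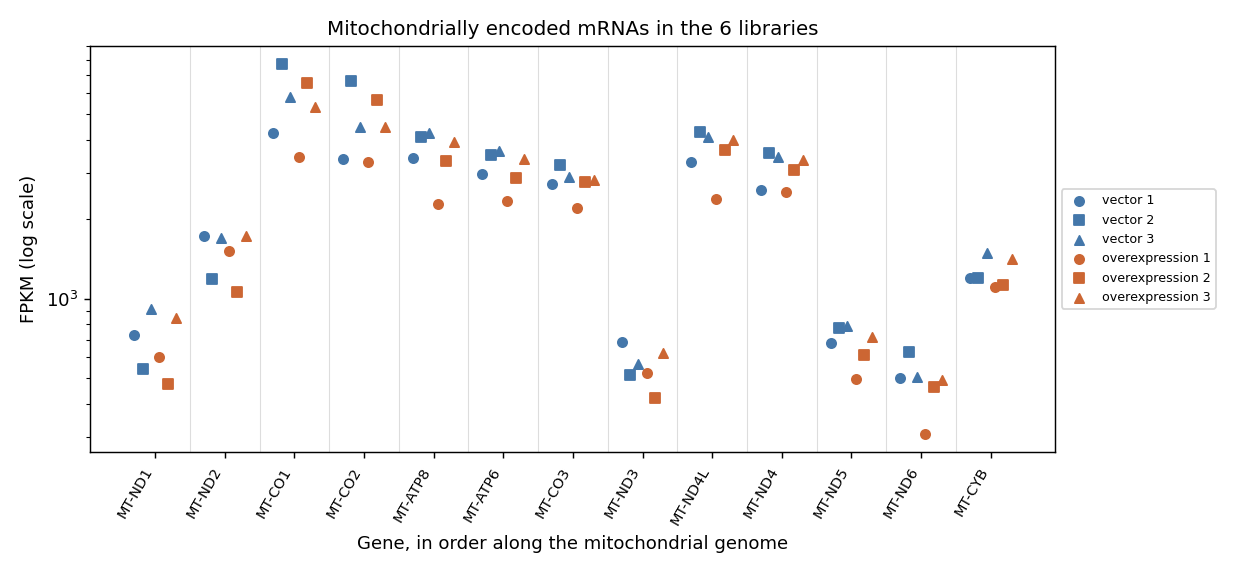
FPKM (log axis) of the 13 mitochondrially encoded mRNAs in each of the 6 libraries, in order along the genome. Blue is vector and orange overexpression, and the symbol gives the replicate number. MT-CO1 and MT-CO2 are highest, squares (number 2) stand apart upward in these 2 and downward in MT-ND1, MT-ND2 and MT-ND3, and the orange circle (overexpression replicate 1) is lowest in most genes.

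In the comparison of overexpression with vector, all 13 mitochondrially encoded mRNAs had a lower mean log2 level with overexpression, against 41.9% of all tested loci, and none passed the test. Their median log2 fold change was -0.19, and that of all tested loci was 0.03. limma called 0 of the 12064 loci at an adjusted p under 0.05 (percent called 0), with 65 loci and 0 of the 34 genes at an unadjusted p under 0.05. With the replicate number as a block it called 12 loci (0.0995%), again none of the 34, while 868 loci and 6 of the 34 genes had an unadjusted p under 0.05. The direction held in 3 of 3 same-numbered pairs for 10 of the 13, against 11.9% of all loci. The 13 mRNAs are cut from shared precursors, so they do not count as 13 separate observations. The median difference was -0.30 in pair 1, -0.23 in pair 2 and -0.05 in pair 3. Without overexpression replicate 1 the median was -0.11 and 10 of the 13 were lower.

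MT-ND6, the only mRNA cut from the light-strand transcript and one with little or no poly(A) tail, had the largest difference of the 13. MT-ND6 (14149 to 14673, minus strand) read 503, 626 and 508 FPKM with vector and 309, 462 and 491 FPKM with overexpression. Every overexpression library lay below every vector library, which was so for 0.845% of all tested loci, and MT-ND6 was the only one of the 34 genes with such a gap in either direction (upward, 2.5% of all loci). MT-ND6 differed by -0.40 on the log2 scale (limma SE 0.22 and adjusted p = 1.0 without the block, SE 0.12 and adjusted p = 0.514 with it). The difference was -0.19 without overexpression replicate 1. Vector replicate 1 and overexpression replicate 3 were separated by 503 against 491 FPKM only. Whether the counting used strand is not stated, so reads of the opposite, heavy-strand transcript across this gene cannot be told apart from MT-ND6.

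MT-ATP8 and MT-ND5 had the next largest differences, each with overlapping groups. MT-ATP8, a small subunit of the ATP synthase (8366 to 8572, plus strand), read 3421, 4104 and 4226 FPKM with vector against 2278, 3311 and 3909 FPKM with overexpression. It differed by -0.34 on the log2 scale (limma SE 0.24, adjusted p = 1.0; SE 0.10, adjusted p = 0.514 with the block), and by -0.12 without overexpression replicate 1. MT-ND5, a proton-pumping complex I subunit (12337 to 14148, plus strand), read 681, 773 and 787 FPKM against 498, 615 and 715 FPKM. It differed by -0.31 (limma SE 0.18, adjusted p = 1.0; SE 0.09, adjusted p = 0.514 with the block), and by -0.17 without overexpression replicate 1. For both genes overexpression replicate 3 lay within the vector range.

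Differences of the other heavy-strand mRNAs ran from -0.24 to -0.09. MT-ND4L and MT-ATP6 gave -0.24 each, MT-CO1 -0.22, MT-ND1 -0.19, MT-CO3 and MT-ND3 -0.18 each and MT-ND2 -0.11. MT-ND4 gave -0.10, and MT-CO2 and MT-CYB gave -0.09 each. MT-CYB, the cytochrome b gene, differed least from pair to pair, at -0.10, -0.10 and -0.07. MT-ND2, MT-ND3 and MT-CO2 were higher with overexpression in pair 3, by 0.03, 0.13 and 0.003. By complex, the medians were -0.18 for the 6 heavy-strand genes of complex I, -0.18 for the 3 of complex IV and -0.29 for the pair of ATP synthase genes.

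**Figure D2:**
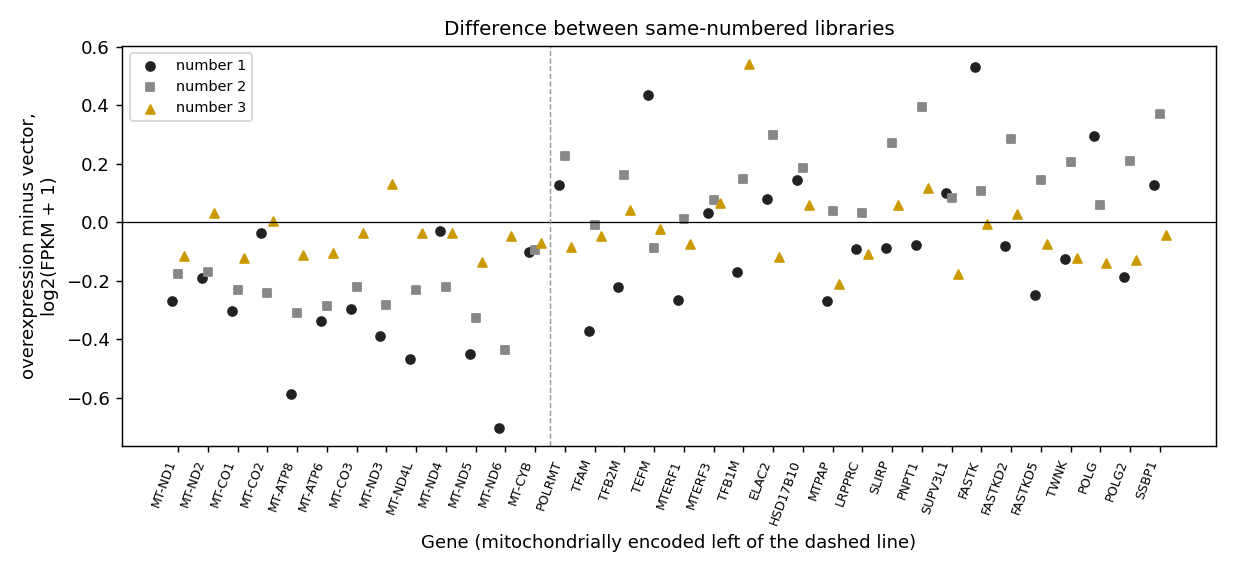
Difference in log2(FPKM + 1) between the overexpression and the vector library of the same replicate number, for each of the 34 genes. The mitochondrially encoded mRNAs, left of the dashed line, lie mostly below 0, lowest for number 1 (MT-ND6 at -0.70) and near 0 for number 3, while the nuclear genes scatter on both sides.

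Within a library, genes on a common mRNA kept nearly the same ratio in all libraries but overexpression replicate 1. The FPKM of MT-ATP8 divided by that of MT-ATP6 was 1.15, 1.17 and 1.17 in vector replicates 1, 2 and 3, 1.15 and 1.16 in overexpression replicates 2 and 3, and 0.970 in overexpression replicate 1. MT-ND4L over MT-ND4 was 1.28, 1.20 and 1.19 in the vector replicates, 1.20 and 1.19 in overexpression replicates 2 and 3, and 0.944 in overexpression replicate 1. In both pairs the library that stands apart is the one with the lowest mitochondrial share, and the gene that is relatively low there is the shorter one, at 207 bases for MT-ATP8 against 681 for MT-ATP6 and 297 for MT-ND4L against 1378 for MT-ND4. Among nuclear loci, the 25 tested ones of up to 600 exon bases had a median difference of 0.10 in pair 1, and the 11128 longer ones 0.06. With each library corrected for GC content and length, in the fit with the replicate block, the median of the 13 mRNAs was -0.25. Few tested loci are as short as MT-ATP8 or MT-ND4L. In pair 1 MT-ND6 (525 bases), MT-ATP8, MT-ND4L and MT-ND3 (346 bases) differed by -0.70, -0.59, -0.47 and -0.39. MT-ND5 (1812 bases) differed by -0.45, MT-CYB (1141 bases) by -0.10, MT-CO2 (684 bases) by -0.04 and MT-ND4 by -0.03. The part of gene length in these ratios and in the group differences was not tested.

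**Figure D3:**
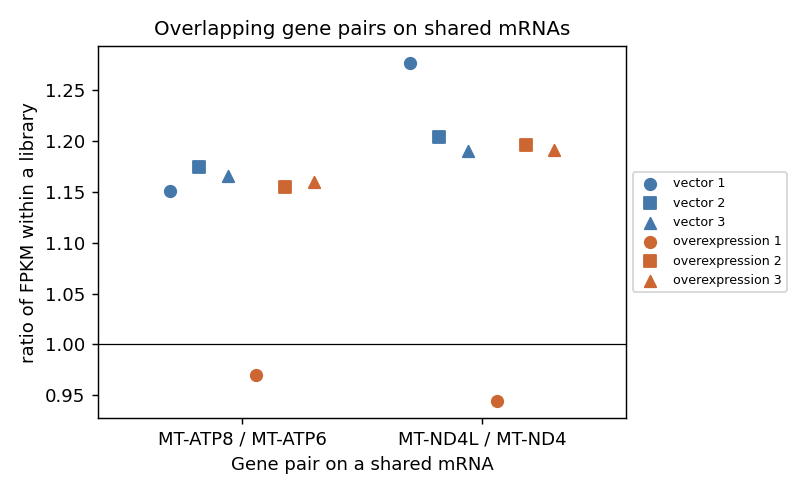
Ratio of FPKM within each library for MT-ATP8 over MT-ATP6 and MT-ND4L over MT-ND4, 1 point per library, with the line at 1. In each pair 5 libraries lie between 1.15 and 1.28 and overexpression replicate 1 lies below 1, at 0.970 and 0.944.

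The replicate number, whose meaning the labels do not give, passed the test for many of these genes, where the group passed for none. An F test of the number in limma, in a fit with group as a term, called 22 of the 34 genes (64.7%) at an adjusted p under 0.05, against 46.5% of all tested loci. The F test asks whether any of the 3 numbers differ. Number 2 minus the others, printed beside its p, was not tested by itself. MT-ATP6, for instance, passed with 0.06 for number 2 minus the others and 0.40 for number 3 minus number 1. The called genes were 9 of the 13 mitochondrially encoded mRNAs and 13 of the 21 nuclear genes. Of the 22, 10 were called in each setting that keeps all libraries and in which the number was tested together with group. The number was not tested with GC and length correction. Of the 10, 8 were called also with any single library left out: MT-ND1, TFB2M, TWNK, ELAC2, PNPT1, SLIRP, SSBP1 and SUPV3L1. Without a filter on low values 11 of the 34 were called, MT-ND1 alone among the mitochondrial mRNAs. Calls below that ended in some setting are given with their adjusted p there. Trimmed mean scaling also called POLRMT, MTERF1, MT-ND3, MTPAP and POLG, which did not pass in the main fit. Number 2 minus the mean of numbers 1 and 3 had a median of 0.07 over all loci, of -0.09 after trimmed mean scaling and of 0.14 and 0.16 under TPM and when scaled without mitochondrial genes. Small values therefore depend on the scaling, and trimmed mean scaling turned the sign for MT-CO3 (0.17), MT-ND4 (0.17), MT-ATP8 (0.13), MT-ATP6 (0.06), MT-ND5 (0.06) and FASTK (0.01).

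Among the mitochondrial mRNAs the numbers differed in opposite directions by gene. MT-CO1 (5904 to 7445, plus strand) read 7700 and 6551 FPKM in vector and overexpression replicate 2 and 3443 to 5787 FPKM in the other 4 libraries (number 2 minus the others 0.62 on the log2 scale, adjusted p of the limma F test 4.1e-04; 0.167 without a filter on low values). MT-CO2 (7586 to 8269, plus strand) read 6673 and 5645 FPKM in number 2 and 3297 to 4470 FPKM in the others (0.67, adjusted p = 5.9e-04; 0.155 without a filter). Both libraries numbered 2 lay above all others for these 2 genes, which was so for 35.9% of all loci. In the other direction, MT-ND1 (3307 to 4262, plus strand) read 541 and 478 FPKM in number 2 and 603 to 913 FPKM in the others (-0.58, adjusted p = 8.2e-04). MT-ND2 (4470 to 5511, plus strand) read 1192 and 1058 FPKM in number 2 and 1511 to 1733 FPKM in the others (-0.57, adjusted p = 0.0026; 0.106 without a filter). MT-ND3 followed the same order, at 515 and 422 against 524 to 686 FPKM, and did not pass (adjusted p = 0.073). Under trimmed mean scaling MT-ND3 passed (limma F test, adjusted p = 0.013). These 3 complex I mRNAs were the ones with both number 2 libraries below all others, which held for 25.7% of all loci.

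The genes that stood apart by number, summed here because of it and thus as a description only, made up different shares of the mitochondrial pool. MT-CO1 and MT-CO2 together held 37.9% and 38.1% of the summed FPKM of the 13 mRNAs in vector and overexpression replicate 2, and 27.1% to 29.7% in the other 4 libraries. MT-ND1, MT-ND2 and MT-ND3 together held 5.93% and 6.12% in number 2 and 9.22% to 11.4% in the others. By group the first share was 31.6% ± 5.65 against 32.3% ± 5.01 and the second 8.77% ± 2.64 against 9.08% ± 2.71 (vector against overexpression, SD, n = 3 each). Relative to their SDs, some other shares differed more by group. MT-ATP8 held 11.8% ± 0.797 of the pool with vector and 10.7% ± 1.02 with overexpression, lower in 3 of 3 pairs (differences of -2.27, -0.486 and -0.427 percentage points). MT-ND6 held 1.64% ± 0.158 against 1.42% ± 0.0764, lower in pairs 1 and 2 and by 0.0135 points higher in pair 3. MT-ND4 held 9.51% ± 0.394 against 10.2% ± 0.714, higher in 3 of 3 pairs and most so in pair 1 (by 1.79 points). The shares of MT-CO2 and MT-ND2 were also higher in 3 of 3 pairs, and those of MT-ATP6 and MT-ND5 lower. No test was made of these shares. The ratio of MT-CO1 to MT-ND1 was 14.2 and 13.7 in number 2 and 5.71 to 6.34 in the other 4 libraries.

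**Figure D4:**
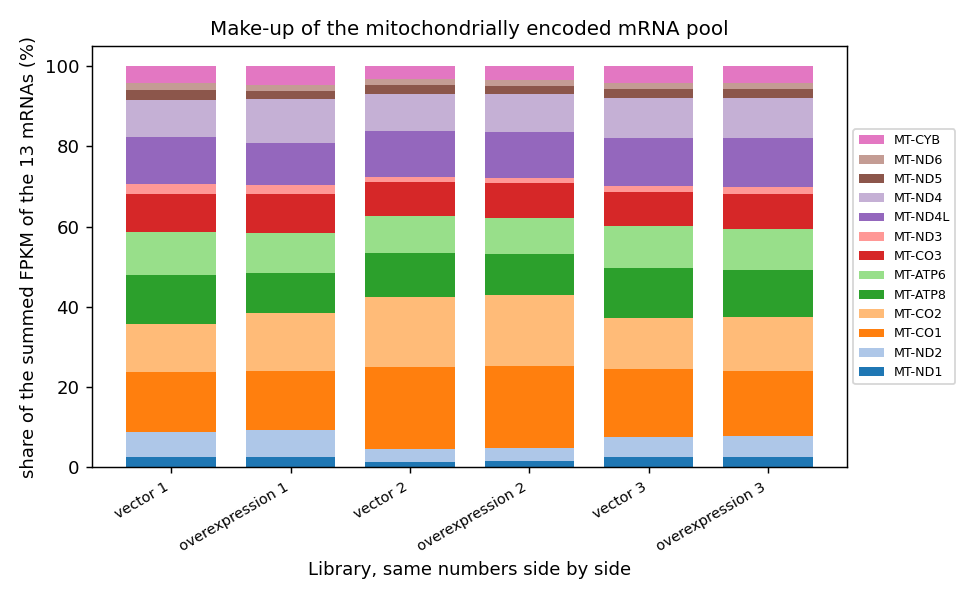
Share of each of the 13 mRNAs in their summed FPKM (%), 1 stacked bar per library, with same-numbered libraries side by side. The 2 bars of number 2 have wider MT-CO1 and MT-CO2 segments (37.9% and 38.1% in sum) and narrower MT-ND1 and MT-ND2 segments than the other 4 bars.

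Libraries numbered 1 and 3 also differed from each other in mitochondrially encoded genes, and no nuclear gene of the 34 passed. With number 2 of both groups left out, a choice made after seeing the data, limma called 7 of the 34 genes between numbers 3 and 1, all 7 mitochondrial and higher in number 3, against 3.71% of all loci. They were MT-ATP8 (0.54 on the log2 scale, adjusted p = 0.0015), MT-CO1 (0.54, adjusted p = 0.0016), MT-ND4L (0.52, adjusted p = 0.0026), MT-CO2, MT-ATP6, MT-ND4 and MT-ND1 (0.40 to 0.42, adjusted p = 0.029 to 0.046). MT-ND2 (0.09) and MT-ND3 (-0.01) did not pass. That fit rests on 4 libraries and few residual degrees of freedom, which makes its p-values unreliable, and overexpression replicate 1, with the lowest mitochondrial share, is 1 of the 2 numbered 1.

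The nuclear genes of mitochondrial gene expression were lower in the libraries numbered 2. Number 2 minus the others was below 0 for 19 of the 21, with a median of -0.48 against 0.07 over all loci, and both number 2 libraries lay below all others for 17 of the 21, against 25.7% of all loci. All 13 that passed the F test were lower in number 2, whereas 19.3% of all loci passed with number 2 lower and 27.2% with number 2 higher. Of the 2 libraries with low levels of most of these genes, vector replicate 2 had the highest mitochondrial mRNA share (10.2%). Overexpression replicate 2, at 8.43%, lay below vector replicate 3 (8.76%) and overexpression replicate 3 (8.52%). A relation between the share and these genes was not tested.

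Of the transcription genes, TFB2M differed most by number. TFB2M, the transcription factor that opens the mitochondrial promoters with the polymerase (chromosome 1, 246540560 to 246566324, minus strand), read 25.3, 8.46 and 19.5 FPKM with vector and 21.6, 9.59 and 20.2 FPKM with overexpression. The mean over number 2 was 2.40-fold lower than over the other 4 libraries (number 2 minus the others -1.17 on the log2 scale, limma F test, adjusted p = 1.3e-04). TFAM (chromosome 10, 58385022 to 58399221, plus strand) read 13.6 and 13.5 FPKM in vector and overexpression replicate 2 and 17.8 to 23.3 FPKM in the others (-0.55, adjusted p = 0.0086; 0.064 without a filter and 0.131 without vector replicate 2). MTERF3, a negative regulator of mitochondrial transcription, also passed (-0.32, adjusted p = 0.019), but not when scaled without mitochondrial genes (adjusted p = 0.061), nor without vector (0.101) or overexpression (0.071) replicate 2. POLRMT, at 11.8 and 14.0 FPKM in number 2 and 14.8 to 17.6 FPKM in the others, did not pass (-0.29, adjusted p = 0.088). Neither did MTERF1, which binds within a tRNA gene of the mitochondrial genome (-0.31, adjusted p = 0.085), nor the elongation factor TEFM (-0.22, adjusted p = 0.38). TFB1M, related to TFB2M but acting as a methyltransferase of the small mitochondrial rRNA, read 4.62 and 5.22 FPKM in number 2 and 4.44 to 6.91 FPKM in the others (-0.15, adjusted p = 0.67).

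Of the 10 genes of RNA cleavage, polyadenylation, stability and decay, 8 passed by number and all 8 were lower in number 2, against 46.5% of all loci called and 19.3% called and lower in number 2. ELAC2, which cuts the 3′ side of tRNAs out of the precursor, read 25.5 and 31.5 FPKM in number 2 and 45.0 to 51.8 FPKM in the others (-0.76, limma F test, adjusted p = 0.0013). HSD17B10, a subunit of the enzyme that cuts the 5′ side, read 81.7 and 93.0 FPKM against 114 to 134 FPKM (-0.48, adjusted p = 0.0057; 0.068 without vector replicate 2). MTPAP, the mitochondrial poly(A) polymerase, was low in all libraries at 2.31 to 3.77 FPKM and did not pass (-0.35, adjusted p = 0.12). Under trimmed mean scaling MTPAP passed (adjusted p = 0.034). SLIRP read 44.9 and 54.4 FPKM in number 2 and 73.3 to 101 FPKM in the others (-0.78, adjusted p = 5.3e-04). The SLIRP gene shares 118 exon bases with SNW1 on the opposite strand, a locus that read 50.5 to 56.3 FPKM across the libraries. LRPPRC, the partner of SLIRP, read 22.3 and 22.8 FPKM against 28.5 to 30.8 FPKM (-0.38, adjusted p = 0.028). The LRPPRC call ended under TPM (adjusted p = 0.052), without a filter (0.057), when scaled without mitochondrial genes (0.062), and with vector replicate 2 (0.378), vector replicate 3 (0.061) or overexpression replicate 2 (0.110) left out. The ratio of SLIRP to LRPPRC was 3.32 and 3.33 in vector and overexpression replicate 1 and 2.01 to 2.68 in the other 4 libraries.

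For both decay genes and for FASTKD2 and FASTKD5 the libraries numbered 2 were the lowest, and for FASTK they were not. PNPT1, the exoribonuclease of the mitochondrial degradosome, read 7.35 and 9.98 FPKM in number 2 and 15.8 to 17.4 FPKM in the others (-0.88, limma F test, adjusted p = 9.1e-04). Its helicase partner SUPV3L1 read 11.5 and 12.3 FPKM against 16.9 to 20.4 FPKM (-0.62, adjusted p = 0.0033). FASTKD5, needed to cut mRNAs that have no flanking tRNA, and FASTKD2, which binds the large mitochondrial rRNA and MT-ND6 mRNA, gave -0.68 (adjusted p = 0.0031; 0.071 without vector replicate 2) and -0.51 (adjusted p = 0.0099; 0.065 without a filter and 0.194 without vector replicate 2). FASTK, whose mitochondrial form is needed for MT-ND6 mRNA, read 20.2, 22.9 and 22.6 FPKM with vector and 29.7, 24.7 and 22.5 FPKM with overexpression. It gave 0.01 by number (adjusted p = 0.77), and its sign turned under trimmed mean scaling (-0.16).

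**Figure D5:**
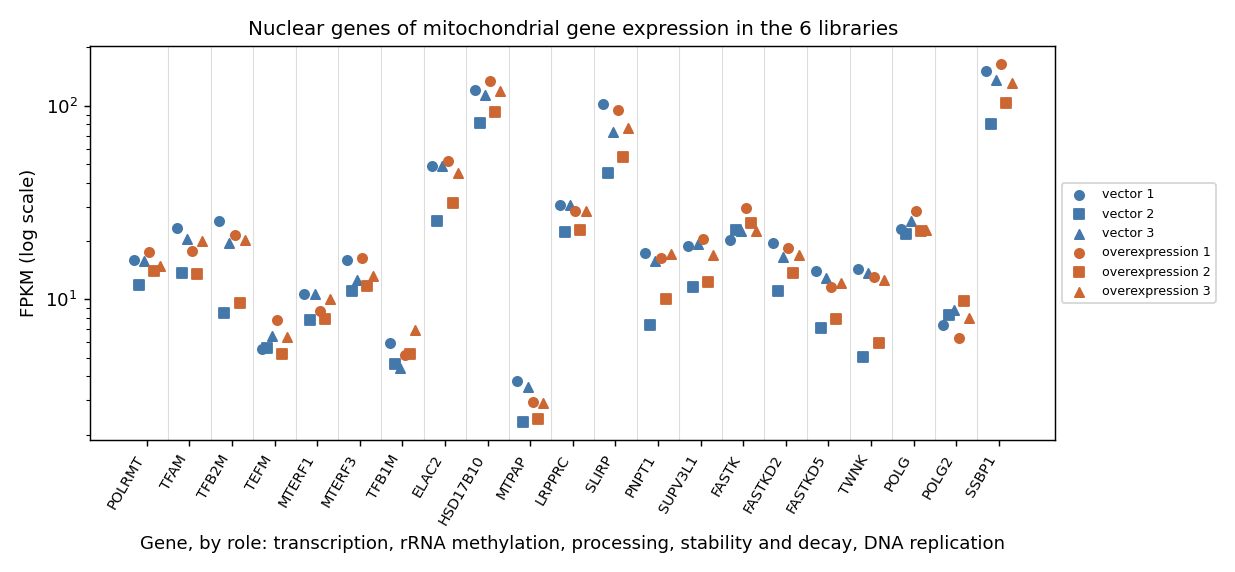
FPKM (log axis) of the 21 nuclear genes in each of the 6 libraries, ordered by role. Blue is vector and orange overexpression, and squares mark number 2, which lie below the circles and triangles of both groups in 17 of the 21 genes, with the widest gaps in TFB2M and TWNK.

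Of the DNA replication genes, the helicase and the single-strand binding protein were lower in number 2. The polymerase subunits did not pass in the main fit. TWNK, the replicative helicase (chromosome 10, 100987367 to 100994401, plus strand), read 14.3, 5.02 and 13.7 FPKM with vector and 12.99, 5.93 and 12.54 FPKM with overexpression. Number 2 was 2.44-fold lower than the other libraries (-1.15 on the log2 scale, limma F test, adjusted p = 1.7e-04). TWNK shares 149 exon bases with MRPL43 on the opposite strand, a locus that read 33.4 and 31.5 FPKM in number 2 and 33.6 to 43.5 FPKM in the others. SSBP1 read 80.1 and 104 FPKM in number 2 and 132 to 164 FPKM in the others (-0.67, adjusted p = 0.0019). POLG, the catalytic subunit of the DNA polymerase, gave -0.16 (adjusted p = 0.39) and shares 458 exon bases with FANCI on the opposite strand. POLG passed under trimmed mean scaling (adjusted p = 0.039). Its accessory subunit POLG2 was 1 of the 2 nuclear genes, with FASTK, whose value in number 2 was not below the others (0.22, adjusted p = 0.12).

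By group, none of the 21 nuclear genes passed in either fit, and their direction depended on single libraries. Of the 21, 13 were higher and 8 lower with overexpression, against 58.1% of all loci higher, with a median log2 fold change of 0.07. Leaving out vector replicate 2 moved that median to -0.20, leaving out overexpression replicate 1 to -0.06 and leaving out overexpression replicate 2 to 0.20. With the replicate block and GC and length correction it was -0.01. FASTK had the largest value, 0.21 (21.9 ± 1.45 against 25.6 ± 3.67 FPKM, SD, n = 3 each; limma SE 0.15, adjusted p = 1.0; with the block SE 0.12, adjusted p = 0.763), with pair differences of 0.53, 0.11 and -0.01. Next were TFB1M (0.17), SSBP1 (0.15), PNPT1 (0.15) and HSD17B10 (0.13). HSD17B10 and MTERF3 (0.06) were the 2 genes higher in 3 of 3 pairs, against 16.5% of all loci.

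On the lower side MTPAP gave -0.15, TFAM -0.14 and MTERF1 -0.11. TFAM read 23.3, 13.6 and 20.6 FPKM with vector and 17.8, 13.5 and 19.9 FPKM with overexpression. It was the only nuclear gene lower in 3 of 3 pairs, at -0.37, -0.01 and -0.05, with an adjusted p of 1.0 by limma (with the block 0.791). POLRMT gave 0.09, TFB2M -0.01 and TEFM 0.11. LRPPRC and SLIRP gave -0.06 and 0.08, FASTKD5 and FASTKD2 gave -0.06 and 0.08, ELAC2 gave 0.09 and POLG 0.07, and SUPV3L1, TWNK and POLG2 lay between -0.04 and 0.002.

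Promoters of nuclear genes of this kind are known to hold sites for the transcription factors NRF1 and GABPA. RefSeq promoter windows of 300 bases (GRCh38.p14) matched 18 of the 21 nuclear genes. TGCGCA, the core of an NRF1 site and its own reverse complement, was in 2 of the 18 (POLRMT and TFB2M) and in 8.42% of 27305 promoters. A longer form of the NRF1 site, which as written does not contain TGCGCA, was searched first. It was in 4 of the 18 and in 6.28% of all, and the core was taken after that count was seen. Some genes with the longer form therefore lack the core, and they are not listed here. CCGGAAG, searched on both strands for GABPA, was in 8 of the 18 and in 10.7% of all. These 8 were POLRMT, TFB1M, MTERF1, TEFM, SLIRP, ELAC2, SSBP1 and POLG2. The promoters of POLRMT and TFB2M are shown because both hold the NRF1 core, TFB2M at 2 places. In the main fit TFB2M passed the test by number and POLRMT did not, while trimmed mean scaling called both. Capitals mark the matches to either motif, which do not overlap.
POLRMT, chr19:633488-633787, minus strand: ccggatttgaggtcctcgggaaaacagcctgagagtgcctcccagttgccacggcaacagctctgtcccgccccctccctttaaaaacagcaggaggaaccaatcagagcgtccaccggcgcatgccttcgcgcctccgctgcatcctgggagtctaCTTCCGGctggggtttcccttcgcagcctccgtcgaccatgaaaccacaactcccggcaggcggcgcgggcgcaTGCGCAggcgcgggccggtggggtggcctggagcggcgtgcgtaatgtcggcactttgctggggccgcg
TFB2M, chr1:246566212-246566511, minus strand: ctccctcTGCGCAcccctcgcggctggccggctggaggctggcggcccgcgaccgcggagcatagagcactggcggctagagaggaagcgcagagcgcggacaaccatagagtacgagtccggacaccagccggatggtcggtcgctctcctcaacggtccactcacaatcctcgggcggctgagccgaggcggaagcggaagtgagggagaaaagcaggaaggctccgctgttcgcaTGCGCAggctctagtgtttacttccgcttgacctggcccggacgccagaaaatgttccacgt
Of the 8 genes with a GABPA match SLIRP, ELAC2 and SSBP1 passed by number in the main fit, and 5 did not. NRF1 itself read 4.75 and 5.85 FPKM in vector and overexpression replicate 2 and 5.79 to 7.11 FPKM in the others (-0.24, limma F test, adjusted p = 0.25).

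Other genes of mitochondrial gene expression, from lists fixed by symbol, gave no call for the group in either fit. Of 35 tested genes of mitochondrial RNA processing outside the 34, 24 were higher and 11 lower with overexpression (median 0.07), and 17 were called by number, 16 of them lower in number 2. The smallest p by group was that of PUS1, a pseudouridine synthase of tRNAs, at 14.4, 5.41 and 12.4 FPKM with vector against 21.2, 6.78 and 20.8 FPKM (0.50; limma with the block, adjusted p = 0.269; without it 1.0). GTPBP3 (0.33), MTERF4 (-0.27) and KIAA0391, the nuclease subunit of the tRNA 5′ processing enzyme (-0.38), followed. Of 18 translation factors 13 were higher and 5 lower (median 0.04), and 5 were called by number, all lower in number 2; the smallest p by group were those of TACO1, needed to translate MT-CO1 (0.18), MTFMT, MTIF3 and MRRF. Of 19 aminoacyl-tRNA synthetases 13 were higher and 6 lower (median 0.03), with VARS2, PARS2, FARS2 and GARS at 0.12 to 0.26, and 6 were called by number, all lower in number 2.

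Of 17 DNA maintenance genes, 5 were higher and 12 lower by group (median -0.04). Number 2 was below the others for 11 of the 17 (median -0.10), and of the 5 called by number 2 were lower and 3 higher in number 2. SUCLA2, a succinyl-CoA ligase subunit, read 38.8 and 33.6 FPKM in number 2 and 21.8 to 26.6 FPKM in the others (0.55, limma F test, adjusted p = 0.0037), and TK2, the mitochondrial thymidine kinase (0.82, adjusted p = 0.0047), and RRM2B (0.48, adjusted p = 0.026) were likewise higher, while SUCLG1 gave -0.13 (adjusted p = 0.20). Of 9 tested regulators of mitochondrial biogenesis, 5 were higher and 4 lower by group (median 0.02). PPRC1, a coactivator of NRF1, read 7.49 and 10.1 FPKM in number 2 and 14.6 to 17.7 FPKM in the others (-0.85, adjusted p = 0.0016), CREB1 was higher in number 2 (0.36, adjusted p = 0.018), and MYC gave -0.22 by group (limma with the block, adjusted p = 0.650). Shares called by number in these 5 lists were 27.8% to 48.6%, against 46.5% of all loci.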

How the data were processed

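Gene expression was measured by RNA-seq in 6 libraries. TRIzol extraction, mRNA purification and a NEBNext Ultra library kit are stated per the labels' protocols. The submitters' processing notes list HISAT2 and GRCh38; which tool counted, on which annotation, is not given in the sources used here. FPKM values were deposited by the authors for 27328 loci, 19974 with an Ensembl identifier, all found in GENCODE release 29, which gave positions. The 12064 loci that reached an FPKM of 1 in 3 or more libraries were kept. Differences in log2(FPKM + 1) were tested 2-sided by limma (version 3.58.1, R 4.3.3; eBayes, trend on) with group as the only term and Benjamini-Hochberg adjustment over these loci, at 0.05. Replicate number was tested beside group by an F test of any difference among the 3 numbers, not of number 2 against the others. Deviations of same-numbered libraries from their group means correlated at 0.725, 0.881 and 0.529 in pairs 1, 2 and 3 (limit 0.1). The pairing rests on these correlations and not on the labels, and 2 unmatched pairs (0.412 and 0.424) also passed the limit. The fits were checked on simulated data. An exact permutation test of 3 against 3 cannot go below 0.1. The 34 genes, the lists and the tests were chosen with earlier results of these data known; lists are described without tests. All 34 genes are named, and of each other list the up to 4 genes with the smallest p by group in the block fit. Nuclear copies of mitochondrial genes could take or give reads; copies of the 13 mRNAs are not analysed here. Mitochondrial rRNAs are not analysed here.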

Additional observations from a re-analysis of the deposited data

How the results depend on the processing

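No gene of the 34 was called for the group under any alternative (smallest limma adjusted p 0.416). The alternatives were a pseudocount of 0.1, no filter, a mean of 5 FPKM or more, trimmed mean scaling, TPM, scaling without mitochondrial genes, no trend, the replicate block, the block with GC and length correction, each library left out, and, chosen after seeing the data, number 2 of both groups left out. The replicate block changed no call of these genes; over all loci it called 12 against 0, and 2 with GC and length correction. The group called 0 or 1 locus with a single library left out and 10 without number 2 of both groups. Calls by number were 5605 loci, 3389 without a filter and 447 to 6174 with libraries left out (3663 without vector replicate 2, 447 without number 2 of both groups); of the 34 genes they were 22, 11 and 7 to 24, and 27 under trimmed mean scaling. The mitochondrial median lay between -0.32 and -0.11 with libraries left out, the nuclear one between -0.20 and 0.20, and the share difference between -1.95 and -0.23 points; 10 to 13 of 13 mitochondrial mRNAs were lower. The cause of these shifts was not tested, and the number was not tested with GC and length correction.

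By group, SUPV3L1 turned to -0.018 under TPM, -0.022 under trimmed mean scaling, -0.035 without mitochondrial genes in the scaling and -0.011 with GC and length correction, which also turned POLG (-0.0064) and POLRMT (-0.045). Without number 2 of both groups SUPV3L1 gave -0.038, SLIRP -0.015, ELAC2 -0.020 and FASTKD2 -0.026. Values that changed sign with libraries left out ranged as follows: ELAC2 from -0.22 to 0.29, FASTKD2 -0.14 to 0.24, FASTKD5 -0.34 to 0.12, HSD17B10 -0.042 to 0.28, LRPPRC -0.20 to 0.047, MTERF3 -0.066 to 0.20, PNPT1 -0.21 to 0.38, POLG -0.035 to 0.13, POLG2 -0.17 to 0.11, POLRMT -0.043 to 0.16, SLIRP -0.23 to 0.35, SSBP1 -0.13 to 0.33, SUPV3L1 -0.23 to 0.19, TEFM -0.017 to 0.23, TFAM -0.36 to 0.0092, TFB2M -0.44 to 0.34 and TWNK -0.45 to 0.32. Of the mitochondrial mRNAs, MT-CO1 ranged from -0.44 to 0.040, MT-CO2 -0.32 to 0.17, MT-CYB -0.20 to 0.014, MT-ND1 -0.40 to 0.0040, MT-ND2 -0.28 to 0.094 and MT-ND4 -0.24 to 0.016. By number, trimmed mean scaling turned number 2 minus the others for FASTK (-0.16), MT-ATP6 (-0.12), MT-ND5 (-0.12), MT-CO3 (-0.0087), MT-ND4 (-0.012) and MT-ATP8 (-0.048); with single libraries left out FASTK ranged from -0.11 to 0.13 and MT-ND5 from -0.0015 to 0.12.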
